A study of Rattus norvegicus with 4 samples.

Results

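This account concerns 9 genes of growth hormone, insulin-like growth factor 1 (IGF1) and cytokine suppressor signalling in rat skeletal muscle. They are Cish, Socs1, Socs2, Socs3, Ghr, Igf1, Igf1r, Stat5b and Igfbp5, taken with every probe set that the platform annotation gives to them. A probe set is the group of short probes on the array that together report 1 transcript signal. They are 9 of the 14218 genes named on the array and had 19 of its 31099 probe sets, and none of these carried a second gene symbol. The set was chosen by measured values, since low Cish signal on these same treated arrays is what drew attention to the pathway, so the values below describe the members and are no independent evidence. The samples were muscle RNA of F344/DuCrlCrlj rats, an inbred strain, that model intermittent claudication, in which poor blood flow makes walking painful. There was 1 array each of sham-operated muscle, ischemia, ischemia with ES (electrical stimulation, which the study's design text links to muscle contraction driven by the nerve), and ischemia with exercise. Which muscle was sampled, how old the rats were, how many rats an array stands for, whether RNA was pooled, and when and how ES or exercise was given are details not given in the sources used here.

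Growth hormone binds its receptor (Ghr) on the cell surface, and the kinase Jak2 bound to the receptor then activates the transcription factor Stat5b. Stat5b switches on Igf1 and also Cish and Socs2, whose proteins bind the receptor complex and damp the signal in a feedback loop. In muscle, IGF1 acts on its receptor (Igf1r) to promote fibre growth and repair, and Igfbp5 is a secreted protein that binds IGFs and changes how much reaches the receptor. Socs1 and Socs3 are suppressors best known for restraining interferon and interleukin 6 signals.

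STAT5 binds a palindrome, TTCNNNGAA, that reads the same on both strands. Promoter windows of 300 bases, from 250 before to 50 after the annotated transcript start, were taken from RefSeq (build GRCr8) and were found for 8 of the 9 genes, all but Socs2. The windows of Cish and Igf1 are shown because these are the members that passed 2-fold on their brightest probe set. Capitals mark matches to the palindrome.
Cish: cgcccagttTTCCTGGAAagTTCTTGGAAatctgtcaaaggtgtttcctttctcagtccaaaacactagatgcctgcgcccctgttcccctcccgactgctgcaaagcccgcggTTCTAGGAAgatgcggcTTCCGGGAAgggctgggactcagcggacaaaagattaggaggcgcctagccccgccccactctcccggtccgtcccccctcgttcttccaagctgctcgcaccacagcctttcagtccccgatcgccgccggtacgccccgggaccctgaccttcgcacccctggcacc
Igf1: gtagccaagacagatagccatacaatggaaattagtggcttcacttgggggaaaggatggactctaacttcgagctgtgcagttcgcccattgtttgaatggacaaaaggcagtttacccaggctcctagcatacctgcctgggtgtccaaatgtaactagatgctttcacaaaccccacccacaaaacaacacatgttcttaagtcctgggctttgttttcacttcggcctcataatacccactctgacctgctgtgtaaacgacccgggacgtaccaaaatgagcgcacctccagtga
The Cish window lies at chr8:116850719-116851018 and the Igf1 window at chr7:24172282-24172581, both on the plus strand.

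The Cish window held 4 matches, TTCCTGGAA, TTCTTGGAA, TTCTAGGAA and TTCCGGGAA, which began at positions -241, -230, -136 and -119 from the transcript start and did not overlap. Of all 33469 promoter windows, 8.87% held at least 1 match, 0.547% at least 2, and 2 windows, those of Cish and LOC120095689, held 4. Among the other members, Socs1 had 1 match (TTCAGGGAA, at position -196), and the windows of Socs3, Ghr, Igf1, Igf1r, Stat5b and Igfbp5 had 0. A match is a string of letters and not a measured binding site, and 0 matches says only that these letters are not in this window.

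**Figure D1:**
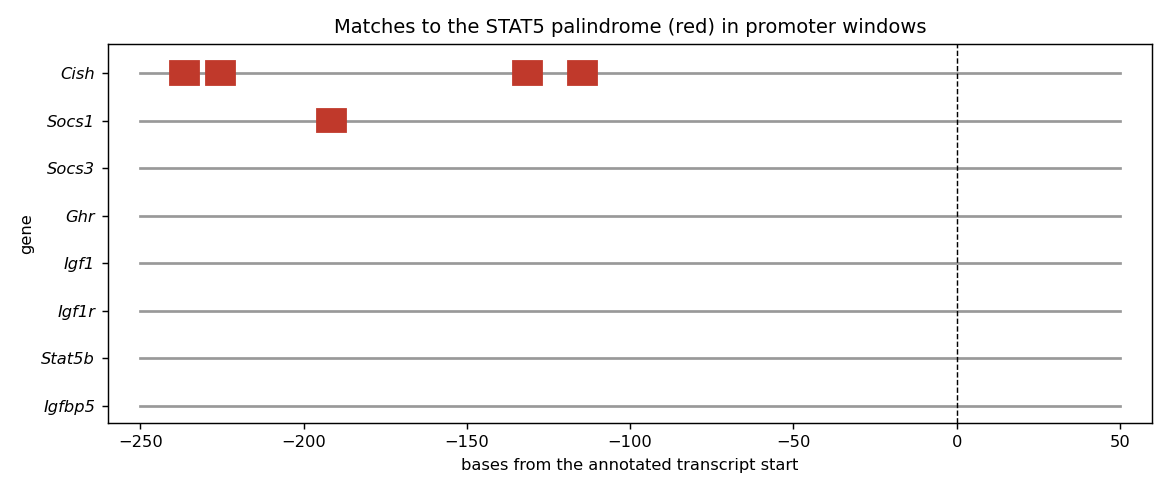
Positions of matches to TTCNNNGAA in the promoter windows of 8 genes; the x axis gives bases from the annotated transcript start (dashed line) and each red box is 1 match of 9 bases. Cish carries 4 matches, Socs1 carries 1 and the other 6 windows carry 0.

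Values are array signals on a linear scale that the authors had brought to a common trimmed mean. A floor of 30.1, the 50th percentile of all values, was set under dim signals, and ratios were taken between floored signals. A gene is represented by its brightest probe set, and for the 9 members the others are given beside it. With 1 array per group there is no replicate, no error and no test, so every difference is one between 2 arrays, and a call means a ratio of at least 2-fold. The 4 arrays had median signals between 29.0 and 31.8. The signal of the actin probe set at the 3' end over that at the 5' end, a measure of RNA degradation and of incomplete copying, was 5.94 on the ES array and between 3.81 and 4.38 on the other 3. The same ratio for GAPDH was 1.26 on the ES array and between 1.04 and 1.16 on the other 3. All 10 muscle fibre markers, among them Ckm, Acta1 and Myh4, were above the floor on every array, with summed signals between 97861 (ischemia) and 106755 (ES). In whole muscle, fewer cells of a type and less RNA per cell cannot be told apart.

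Cish, the cytokine-inducible SH2 protein that restrains STAT5 signalling, was low on both treated arrays. Its brighter probe set (1378586_at) had a signal of 292 in sham, 355 with ischemia, 60.5 with ES and 99.2 with exercise. Sham and ischemia were thus high and close to each other, and ES was the lowest. The Cish signal was 5.87-fold lower with ES than with ischemia and 3.58-fold lower with exercise than with ischemia. It was 4.83-fold lower with ES than with sham and 2.94-fold lower with exercise than with sham, so the signal was low against either untreated array. Both ratios to ischemia use the single ischemia array, and both ratios to sham the single sham array.

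Ischemia and sham differed by 1.22-fold in Cish, and ES and exercise by 1.64-fold. Cish was the lowest of 9164 genes above the floor on both arrays in the ratio of ES to ischemia, and rank 4 from the lowest of 9064 for exercise to ischemia. Against sham it ranked 5 from the lowest of 9078 with ES and 2 from the lowest of 9058 with exercise. The other Cish probe set (1388233_at) was dimmer than the floor on all 4 arrays, at 28.7 in sham, 21.3 with ischemia, 4.68 with ES and 9.76 with exercise. It also had its lowest values on the ES and exercise arrays, but signals this dim carry no ratio here. Averaging both probe sets brought the log2 ratio to -1.28 for ES to ischemia and to -0.92, within 2-fold, for exercise to ischemia.

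The Cish count has to be read against the whole array. In the ratio of ES to ischemia, 1 of the 7 measured members (Cish) was lower and 0 were higher, beside 0.793% of 10092 genes lower and 2.28% higher. In the ratio of exercise to ischemia, 1 of 7 (Cish) was lower and 0 higher, beside 0.872% lower and 1.14% higher. The same gene was the 1 called against sham, lower with ES (1.06% of genes lower, 3.78% higher) and lower with exercise (0.188% lower, 0.258% higher). Nothing is read from these counts, because the Cish contrasts served to choose the genes. Muscle fibre markers, by their brightest probe sets, had their highest sum on the ES array, while further, dimmer probe sets of Pygm (log2 ratios of -1.403 and -0.98) and Tnnt3 (-0.90) were lower there than with ischemia. Slow fibre markers (10 of 10 above the floor) summed to 66333 in sham, 11603 with ischemia, 23214 with ES and 76603 with exercise. The part of fibre content and fibre type in the Cish signal was not tested.

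**Figure D2:**
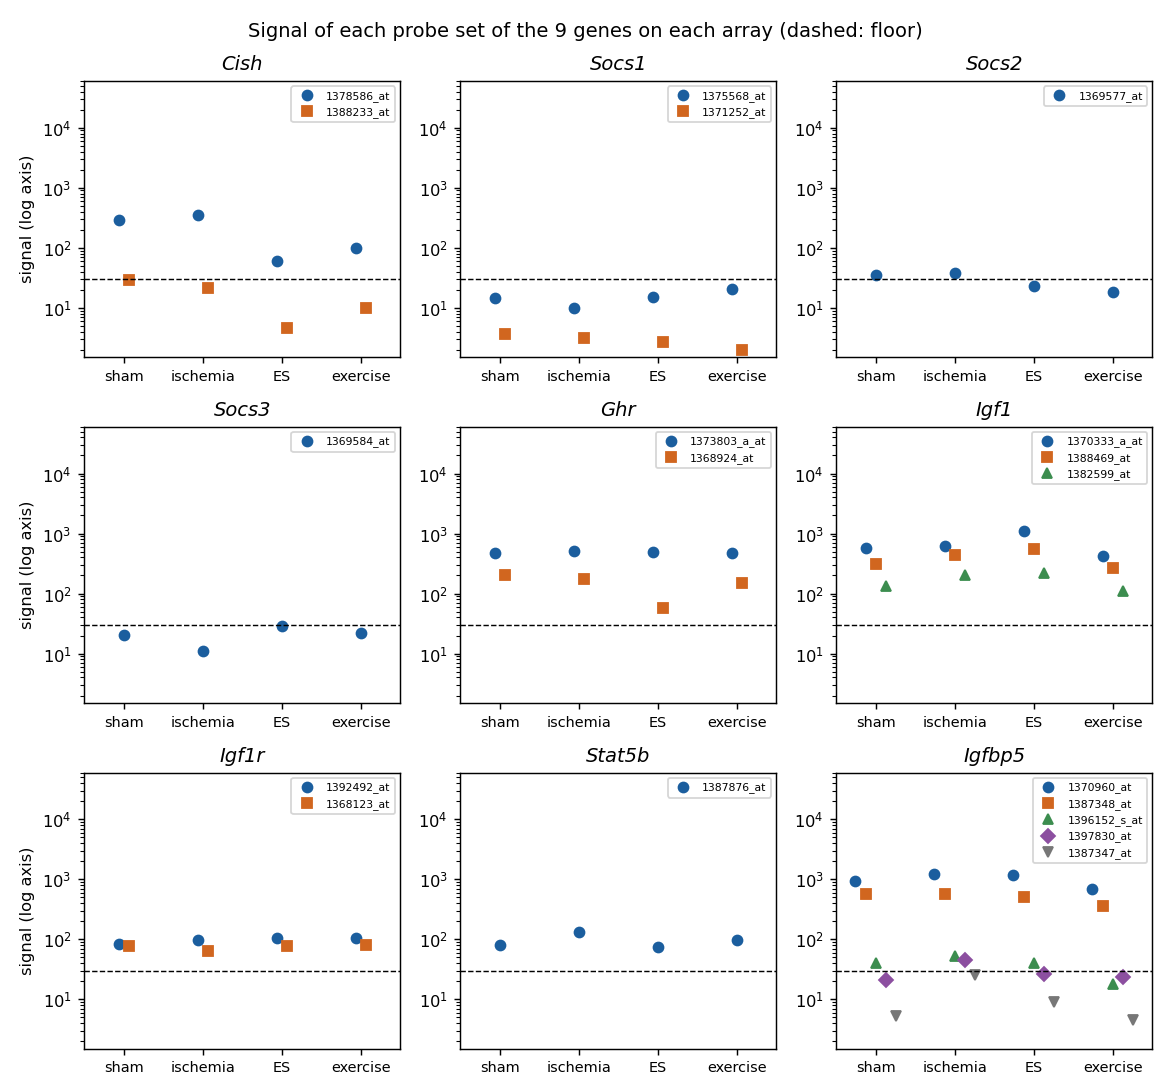
Signal of every probe set of the 9 genes on the 4 arrays, on a log axis; each marker is 1 probe set on 1 array and the dashed line is the floor of 30.1. Cish drops from 292 in sham and 355 with ischemia to 60.5 with ES and 99.2 with exercise, and the 3 Igf1 probe sets peak with ES.

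The other suppressors were at or under the floor. Socs2, the feedback inhibitor of growth hormone signalling, had signals of 34.9 in sham, 38.3 with ischemia, 22.6 with ES and 18.4 with exercise. Both untreated arrays were just above the floor and both treated arrays under it, so Socs2 was at least 1.27-fold lower with ES and with exercise than with ischemia, a bound that stays within 2-fold. With the floor at the 30th percentile its log2 ratio of exercise to ischemia was -1.06, past 2-fold lower, and that of ES to ischemia -0.76. Socs3, a target of STAT3 signalling, had signals of 20.3 in sham, 11.0 with ischemia, 29.2 with ES and 22.2 with exercise, all under the floor. Socs1, which restrains interferon signalling, was under it on both probe sets, at 9.88 to 20.5 on the brighter (1375568_at) and 1.98 to 3.59 on the dimmer (1371252_at). With the floor at the 30th percentile Socs3 was past 2-fold higher with ES and with exercise than with ischemia, from signals of low reliability. At the floor used throughout, Socs1 and Socs3 have no ratio, and these signals do not show that the transcripts were absent.

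The growth hormone receptor gene gave different answers on its 2 probe sets. The brighter (1373803_a_at) had signals of 475 in sham, 506 with ischemia, 487 with ES and 476 with exercise, and no pair of arrays differed by more than 1.06-fold. The other (1368924_at) had 206 in sham, 172 with ischemia, 57.9 with ES and 148 with exercise. On this probe set the ES array alone was low, 2.96-fold under ischemia, 3.55-fold under sham and 2.55-fold under exercise, while exercise and ischemia differed by 1.16-fold. With the floor at the 70th percentile the log2 ratio of ES to ischemia was -0.76, within 2-fold. Among all probe sets with 1 gene symbol that were compared, 0.973% were lower with ES than with ischemia, 1.15% lower than with sham and 1.18% lower than with exercise. The Ghr gene also yields a shorter transcript for a circulating growth hormone binding protein. Which transcripts each probe set detects was not analysed here. That ES array also had the highest end ratios of actin (5.94) and GAPDH (1.26), and the part of RNA quality in the Ghr difference was not tested.

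Stat5b, the transcription factor downstream of the receptor, has 1 probe set (1387876_at), with signals of 80.0 in sham, 131 with ischemia, 74.8 with ES and 97.9 with exercise. The ischemia array was the highest, 1.63-fold above sham, 1.75-fold above ES and 1.33-fold above exercise, all within 2-fold. To place such ratios, the compared genes were divided into 20 groups of 504 or 505 by mean signal. The middle 90% of genes as bright as Stat5b had log2 ratios of ischemia to sham between -0.49 and 0.64, and Stat5b was at 0.71. For ES to ischemia the range was -0.55 to 0.85, and Stat5b was at -0.80. For exercise to ischemia it was at -0.42, inside the range of -0.61 to 0.59.

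Igf1, the growth factor that growth hormone induces and that muscle also makes itself, was highest with ES and lowest with exercise. The brightest probe set (1370333_a_at) had signals of 567 in sham, 623 with ischemia, 1096 with ES and 423 with exercise. The next (1388469_at) had 315 in sham, 442 with ischemia, 554 with ES and 270 with exercise. The dimmest (1382599_at) had 133 in sham, 203 with ischemia, 219 with ES and 109 with exercise. All 3 probe sets thus put the arrays in 1 order, from ES through ischemia and sham to exercise.

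The steps in that order differed in size between the Igf1 probe sets. ES lay 2.59-fold above exercise on the brightest probe set, 2.05-fold on the next and just under 2-fold on the dimmest. Of all probe sets with 1 symbol, 2.58% were higher with ES in this pair. Igf1 was the 1 of 7 members past 2-fold between ES and exercise, higher with ES, where 2.95% of genes were higher and 1.1% lower. Against ischemia, ES was 1.76-fold, 1.25-fold and 1.08-fold higher on the 3 probe sets in order of brightness, so the neighbouring arrays ES and ischemia are hardly apart on the dimmest. Exercise was 1.47-fold, 1.64-fold and 1.85-fold lower than ischemia. Against sham, ES was 1.93-fold, 1.76-fold and 1.65-fold higher, and exercise was 1.34-fold, 1.17-fold and 1.21-fold lower. Ischemia was 1.10-fold, 1.40-fold and 1.53-fold higher than sham.

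The Igf1 log2 ratio on the brightest probe set was 0.81 for ES to ischemia and -0.56 for exercise to ischemia. The middle 90% of equally bright genes lay between -0.61 and 0.56 in the first and between -0.41 and 0.32 in the other. The ES array, where Igf1 was highest, also had high summed signals of markers of other cells. Markers of developing and regenerating fibres and satellite cells, of which 6 of 9 were measured, summed to 1507 in sham, 1312 with ischemia, 4378 with ES and 990 with exercise. Macrophage markers, 12 of 12 measured, summed to 1810, 4214, 5087 and 1859 in that order of arrays. Endothelial markers, 8 of 9 measured, summed to 2245, 2117, 4226 and 2353. The satellite cell genes Pax7 and Myf5 had no probe set with a single symbol here, and Chrng was under the floor. ES had the highest sum for all 3 of these lists, but bright genes weigh most in a sum, as Myh8 did with 2393 of the 4378. Sums were also highest with ES for skeletal muscle fibre, pericyte and smooth muscle, adipocyte, Schwann cell and lymphocyte markers. They were highest on another array for slow fibre, fibroblast, tendon, neutrophil and erythroid markers. Tendon markers had their lowest sum with ES, at 565. By gene, the median log2 ratio of ES to ischemia was 1.64 for the developing and regenerating fibre list and 0.98 for the endothelial list. It was -0.05 for the macrophage list, with 1 marker past 2-fold higher (Spp1) and 1 lower (C1qb). The part of these cells in the Igf1 signal was not tested.

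**Figure D3:**
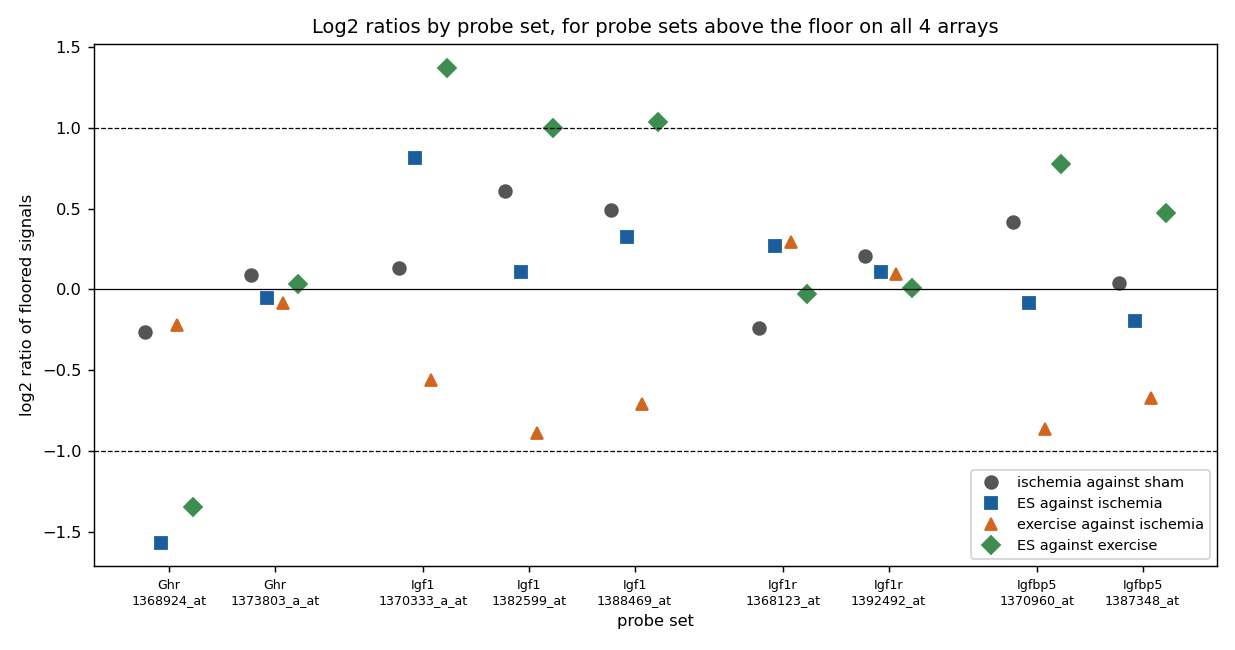
Log2 ratios of the probe sets of Ghr, Igf1, Igf1r and Igfbp5 that were above the floor on all 4 arrays; each marker is 1 comparison and dashed lines mark 2-fold. The Ghr probe sets differ in ES against ischemia (-1.57 and -0.05), whereas the 3 Igf1 probe sets all lie near or above 1 in ES against exercise.

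Igf1r, the receptor for IGF1, differed little between arrays. Its brighter probe set (1392492_at) had signals of 85.2 in sham, 98.2 with ischemia, 106 with ES and 105 with exercise, and the other (1368123_at) had 76.3, 64.8, 77.9 and 79.5. The largest ratio on either was 1.24-fold, between ES and sham on the brighter. The probe sets went opposite ways between ischemia and sham, at log2 ratios of 0.21 and -0.24, so no direction is given.

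Igfbp5, the secreted IGF binding protein, was lowest with exercise. Its brightest probe set (1370960_at) had signals of 929 in sham, 1243 with ischemia, 1173 with ES and 684 with exercise. The next (1387348_at) had 560.3 in sham, 576 with ischemia, 503 with ES and 362 with exercise. On these 2 probe sets exercise was 1.82-fold and 1.59-fold lower than ischemia, and 1.36-fold and 1.55-fold lower than sham, all within 2-fold. A dimmer probe set (1396152_s_at) was at 40.5 in sham, 53.0 with ischemia and 40.4 with ES, and under the floor with exercise. Another (1397830_at) was above the floor with ischemia alone, at 44.5, and 1387347_at was under it on all 4 arrays. ES and ischemia differed by 1.06-fold on the brightest and 1.15-fold on the next. The log2 ratio of exercise to ischemia, -0.86, lay under the range of -0.35 to 0.41 that held the middle 90% of equally bright genes. Fibroblast markers, 7 of 7 above the floor on all arrays, summed to 13763 in sham, 24660 with ischemia, 21218 with ES and 13870 with exercise. Bright genes weigh most in this sum, as Col3a1 did with 7707 of the 24660. By gene, the median log2 ratio of exercise to ischemia was -0.89, with 3 of 7 past 2-fold lower, beside 0.872% of all genes. Dcn was at -0.32 and Lum at 0.08. The part of fibroblasts in the Igfbp5 signal was not tested.

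**Figure D4:**
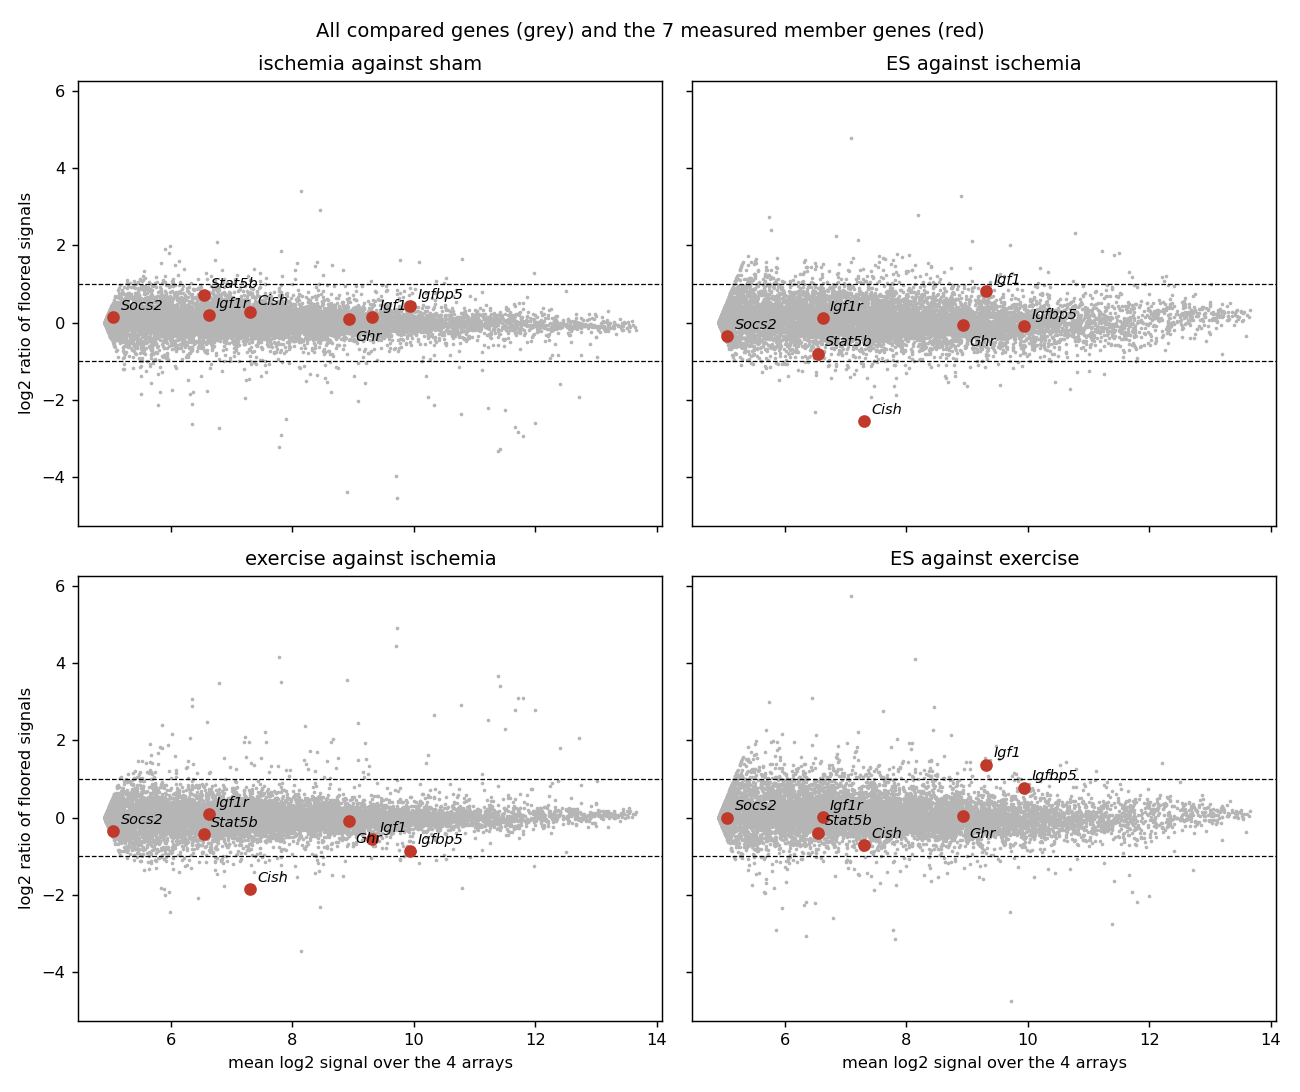
Log2 ratio of floored signals against mean log2 signal for 10092 genes (grey) in 4 comparisons, with the 7 measured members in red and dashed lines at 2-fold. Cish lies at -2.55 in ES against ischemia and -1.84 in exercise against ischemia, and Igf1 at 1.37 in ES against exercise.

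Between ischemia and sham, 0 of the 7 measured members passed 2-fold, beside 0.783% of genes higher and 0.862% lower, and the median log2 ratio of the members was 0.21 against 0.00 for all genes. The median of the members was -0.08 for ES to ischemia, against 0.05 for all genes, and -0.42 for exercise to ischemia, against 0.00. Socs1 and Socs3 are not in these medians, since they passed the floor on no array.

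The rest of the pathway was read from 94 further genes in 8 lists, of which 67 were above the floor on at least 1 array. In the ratio of ES to ischemia 3 of 67 were past 2-fold higher and 0 lower, beside 2.28% of all genes higher and 0.793% lower. In the ratio of exercise to ischemia 0 were higher and 1 lower, beside 1.14% and 0.872%. Between ischemia and sham 0 passed either way, beside 0.783% higher and 0.862% lower. The median log2 ratio of the 67 was 0.01 for ES to ischemia, -0.02 for exercise to ischemia and 0.11 for ischemia to sham. For all genes it was 0.05, 0.00 and 0.00.

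Among ligands, Igf2, the fetal growth factor that binds the same receptor as IGF1, had the array order of Igf1 at its upper end. Its signal was 408 in sham, 802 with ischemia, 1680 with ES and 466 with exercise. Sham and exercise were low and ES was the highest, 2.09-fold above ischemia and 4.11-fold above sham. Exercise was 1.72-fold lower than ischemia. Its other probe sets were under the floor on all 4 arrays. Averaging with them, which by construction shrinks the ratio, gave an Igf2 log2 ratio of 0.27 for ES to ischemia. Of the 10 cytokine and hormone ligands listed, 9 were under the floor on all 4 arrays, among them growth hormone itself (Gh1), Il6 and Lif. The 1 measured, Il15, a cytokine that muscle secretes, had signals of 286 in sham, 412 with ischemia, 286 with ES and 259 with exercise.

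Among IGF binding proteins and receptors, 7 of the 8 measured genes of the list stayed within 2-fold in all 6 pairs of arrays on their brightest probe set, Igf2 being the exception. A further Igfbp3 probe set was past 2-fold higher with ES than with sham, at a log2 ratio of 1.15. Igfbp7, a binding protein of vessel walls that is also named after its values were seen, had signals of 1677 in sham, 1990 with ischemia, 3249 with ES and 1712 with exercise, and so was 1.63-fold higher with ES than with ischemia. Igfbp6, which prefers IGF2 and was picked the same way, was at 572 in sham, 1003 with ischemia, 659 with ES and 821 with exercise.

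Of 11 measured cytokine receptors, Il2rg and Epor passed 2-fold in some pair. Il2rg, the receptor chain shared by several interleukins of lymphocytes, was at 104 with ES and between 26.3 and 35.3 on the other 3 arrays, 2.95-fold above ischemia, but at a log2 ratio of 0.04 with the floor at the 70th percentile. Of 7 lymphocyte markers 2 were measured, and the 6 with a probe set summed to 166 with ES and between 78.6 and 117 on the other 3 arrays. Their part in the Il2rg signal was not tested. Epor, the erythropoietin receptor, was at 60.8 with ES, 32.6 with ischemia and under the floor in sham and with exercise, at least 2.02-fold higher with ES than with exercise. Its other probe set above the floor had a ratio the other way in that pair, at -0.47 on the log2 scale. Averaging all Epor probe sets, with signals under the floor set to it, gave 0.18.

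Inside the cell, 0 of 16 measured JAK and STAT genes, phosphatases and adaptors passed 2-fold in any pair of arrays on their brightest probe set. Of all genes, between 0.446% and 4.84% passed it, depending on the pair. Jak1, a receptor kinase, lay between 1176 and 1240, and Ptpn11, a phosphatase of growth factor receptors, between 1587 with ES and 2149 with exercise. Jak2, the kinase bound to the growth hormone receptor, was close to the floor, at 37.3 in sham, 34.0 with ischemia, 31.5 with exercise and under it with ES. Stat5a, the close relative of Stat5b, ran from 171 with ES to 201 in sham. Jak2 and Stat5a are named for their place in the pathway, after their values were seen.

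The other suppressors Socs5, Socs6 and Socs7 were also within 2-fold in all pairs, Socs5 between 333 and 384 and Socs6 between 643 and 790. None of 20 measured genes of insulin and IGF1 receptor signalling passed 2-fold in any pair, beside the same 0.446% to 4.84% of all genes. Pdpk1, 1 of the 2 brightest genes of this list, lay between 1146 with ES and 1375 with exercise. The other, Rheb, an activator of the growth kinase mTOR, was at 1683 in sham, 1665 with ischemia, 2129 with ES and 2314 with exercise. Irs1, an adaptor of both receptors that is named after its values were seen, was at 80.6, 83.7, 44.8 and 70.4 in that order, 1.87-fold lower with ES than with ischemia.

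Of 5 listed targets of STAT5 outside the members, 4 were measured. Of these, 0 were past 2-fold lower with ES than with ischemia, beside 0.793% of all genes, so a count of 0 says little. Bcl6, a transcriptional repressor named after its values were seen, had signals of 1800.2 in sham, 1359 with ischemia, 1788 with ES and 1483 with exercise. Ccnd1, the cell cycle gene of cyclin D1, had 171 in sham, 220 with ischemia, 261 with ES and 109 with exercise. It was 2.01-fold lower with exercise than with ischemia and 1.19-fold higher with ES, but its 2 other probe sets had log2 ratios of -0.69 and -0.38 for exercise to ischemia, and its own was -0.99 under quantile and -0.98 under loess normalization.

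Of 4 targets of STAT3, 1 passed 2-fold between ES and ischemia, higher with ES, beside 2.28% of all genes higher. Junb, an early response transcription factor, was at 43.3 with ischemia and 87.4 with ES, 2.02-fold higher, with log2 ratios of 0.93 under quantile and loess normalization, just under the threshold. Cebpd, another STAT3 target that is named after its values were seen, was at 329 in sham, 407 with ischemia, 245 with ES and 232 with exercise.

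**Figure D5:**
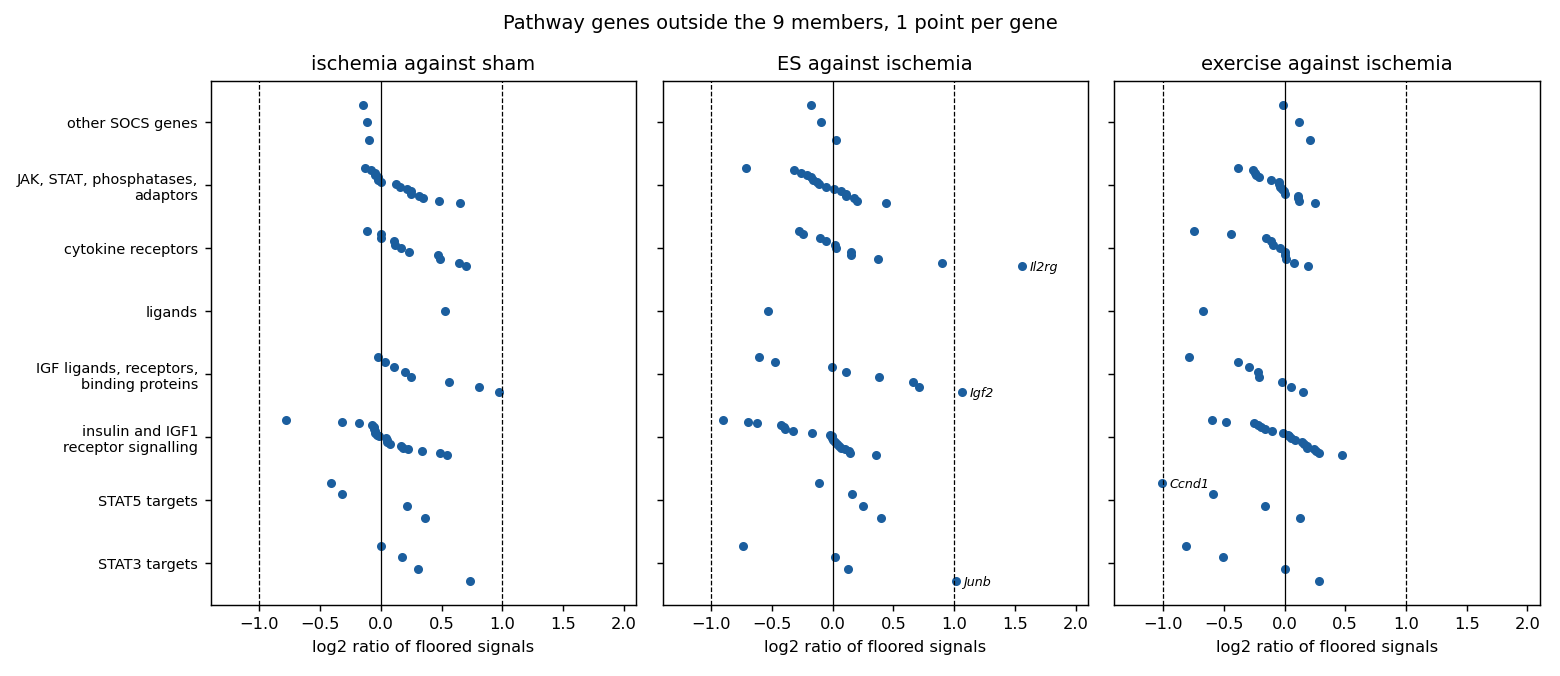
Log2 ratios of the 67 measured pathway genes outside the 9 members, by list, in 3 comparisons; each point is 1 gene and dashed lines mark 2-fold. The genes past 2-fold are Il2rg, Igf2 and Junb in ES against ischemia and Ccnd1 in exercise against ischemia.

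Genes with a pattern like that of Cish were sought over the 4 arrays by the root mean square difference of mean-centred log2 signals, among 8827 genes above the floor on all arrays. The nearest was Gadd45g, a stress-response gene, at 0.41, with signals of 395 in sham, 371 with ischemia, 137 with ES and 134 with exercise. Then came Slc25a25, a mitochondrial carrier of adenine nucleotides (0.45), the kinase gene Dyrk2 (0.50), the tubulin gene Tubb1 (0.53) and Ube3al1 (0.61). Each was lower on both treated arrays than on both untreated ones. The promoter windows of 4 of these 5 genes were in the table and held 0 matches to TTCNNNGAA.

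For Igf1 the nearest genes were closer. Carhsp1, which encodes an RNA-binding protein, differed by 0.036, with signals of 101 in sham, 107 with ischemia, 184 with ES and 74.9 with exercise. LOC100909928 (0.062), Fam43a (0.066), the adhesion receptor gene Adgrl2 (0.074) and Myl4, the myosin light chain of embryonic muscle and atrium (0.090), followed. Likeness over 4 arrays is a weak measure and many genes can share a pattern.

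The palindrome was also set against the arrays as a whole. Of 8462 compared genes with a promoter window, 600 held at least 1 match, Cish among them, and 1.5% of these were 2-fold lower with ES than with ischemia, beside 0.768% of all 8462. The share lower was also larger among the 600 in exercise against ischemia (1.5% beside 0.756%) and exercise against sham (0.5% beside 0.165%). The same held in ES against exercise (1.17% beside 0.981%). It was smaller among the 600 in ES against sham (0.667% beside 0.839%) and in ischemia against sham (0.5% beside 0.733%). The share 2-fold higher was larger among the 600 in ischemia against sham (1.33% beside 0.697%) and exercise against sham (0.5% beside 0.213%). It was also larger in ES against sham (4.17% beside 3.53%) and ES against exercise (3% beside 2.80%). In ES against ischemia (1.67% beside 2.22%) and exercise against ischemia (0.833% beside 1.08%) it was smaller. The shares lower rest on between 3 and 9 genes. No relation is read from these shares, and none was tested. Of the 35 genes with at least 2 matches, 1 (Cish) was lower and 0 were higher in ES against ischemia. Of all 8462, 0.768% were lower and 2.22% higher in that pair. In ES against sham 1 of the 35 (Cish) was lower and 2 were higher, beside 0.839% and 3.53% of all. Of the 4 with at least 3, Psmd3, a proteasome subunit gene, had signals of 581 in sham, 543 with ischemia, 410.2 with ES and 573 with exercise. Ifgga2l1 was not above the floor in sham, and was at 41.7 with ischemia, 59.3 with ES and 39.8 with exercise. Zfp94 was near or under the floor. Of the 94 pathway genes 70 had a window, and 4 of them, Prlr, Il10rb, Prl and Bcl2l1, held a match. That is 5.71% of the 70 genes. The 8.87% given for all promoter windows is a share of windows and not of genes. By gene, 600 of the 8462 compared genes held a match.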

How the data were processed

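Muscle RNA was isolated with a column kit and biotin-labelled from the 3' end, per the labels' protocols, and measured on 4 arrays, 1 per group. The authors deposited 1 linear intensity per probe set and array. Per the submitters' processing notes, MAS5 was used, its version unstated. The 2% trimmed mean was 150.1 on each array, so the scale had been set before deposit, and a difference in total mRNA cannot be seen. The platform annotation (2016) gave a single symbol to 20832 of 31099 probe sets, several to 436 and none to 9831, and genes were named from the first kind alone.

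Each array was rescaled to the same trimmed mean, floored at the 50th percentile and compared as log2 ratios with Python 3.11.15 and limma 3.58.1 (quantile and loess alternatives). A gene stood for its brightest probe set, and 10092 genes that passed the floor somewhere entered the 6 pairs of arrays. The counting was tested on simulated data. Replicates do not exist, so no p-value or interval was computed, and the number of arrays limits the precision.

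Named genes are the members, pathway genes past 2-fold in any pair, otherwise the 2 brightest of a list, and the 5 nearest genes in pattern to each member past 2-fold; exceptions are marked. The members and lists were chosen with earlier results of these data known. Alternatives were quantile and loess normalization, floors at the 30th or 70th percentile, calls at 1.5-fold or 3-fold, averaging a gene's probe sets, and leaving out the 244 probe sets open to cross-hybridization.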

Additional observations from a re-analysis of the deposited data

Results flagged for a closer look

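Genes for which ES and exercise lay on opposite sides of ischemia, with at least 2-fold between them, were singled out among the members and pathway genes above the floor on all 4 arrays. With 1 array each, the difference was not tested. Igf1 had log2 ratios to ischemia of 0.81 with ES and -0.56 with exercise. Igf2 had 1.07 with ES and -0.78 with exercise. Ccnd1 had 0.25 with ES and -1.01 with exercise, but its 2 other probe sets were at -0.23 and 0.17 with ES, and ES lay above exercise by 0.46 and 0.55 on them, within 2-fold.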

How the results depend on the processing

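With 1 array per group no result has a replicate check, and the depth of the measurement is set by signal over the floor: Socs1 and Socs3 lie under it on all 4 arrays, Socs2 on 2 and Jak2 on 1. Members were counted at 2-fold in 6 pairs of arrays under 9 other settings, and 40 of the 54 counts stayed within 1.5 times. At 1.5-fold the count went from 0 to 1 for ischemia against sham, from 1 to 3 for ES against ischemia and for ES against exercise, and from 1 to 2 for exercise against ischemia and for ES against sham. The share of all genes called grew as well, between 4.64% and 16.7% over the 6 pairs at 1.5-fold, beside 0.446% to 4.84% at 2-fold. At 3-fold it went to 0 for ES against exercise and for exercise against sham. With the floor at the 30th percentile it went to 2 for ES against ischemia and 3 for exercise against ischemia, where Socs3 joins Cish in both and Socs2 in the latter, with 5.05% and 4.57% of all genes called, beside 3.07% and 2.01%. With the mean of all probe sets it went to 0 for exercise against ischemia and for exercise against sham. The other Cish probe set is at the floor, which by construction brings these Cish log2 ratios to -0.92 and -0.78. Counting any probe set of a member, chosen after seeing the data, gave 2 for ES against ischemia, ES against exercise and ES against sham, through Ghr, where 3.67%, 4.55% and 5.48% of all genes were called by the same count. The Cish log2 ratio of ES to ischemia ran from -2.63 to -1.28, with -1.80 under the floor at the 70th percentile, and that of Igf1 for ES to exercise from 1.14 to 1.40. The small ratio of Igf1r between ES and exercise (0.01) changed sign under quantile and loess normalization (-0.05 in both). Averaging with probe sets under the floor on all 4 arrays took the Igf2 log2 ratio of ES to ischemia from 1.07 to 0.27, again by construction.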
